A study of Mus musculus with 26 samples.

Results

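The Hox genes were followed across 8 subtypes of mouse dorsal root ganglion neuron. Members were taken by gene symbol from a list of 38 Hox genes, of which 37 had a row among the 39017 genes of the deposited count table; Hoxd4 was not analysed here. Of the 37, 10 belong to the HoxA cluster, 10 to HoxB, 9 to HoxC and 8 to HoxD, and 30 passed the filter on low counts and were tested.

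RNA was sequenced from 26 libraries of fluorescently sorted neurons of mice at postnatal day 23 or later, each library pooling several mice and sorting rounds. Nonpeptidergic nociceptors (MrgD-EGFP), peptidergic nociceptors (CGRP-GFP) and rapidly adapting Aβ low-threshold mechanoreceptors, the Aβ RA-LTMRs (Npy2r-GFP), came from reporter mice without tamoxifen. C-LTMRs carried ThCreER;R26tdtomato(Ai14) and received tamoxifen at 2 mg per day between postnatal days 13 and 15, and Aδ-LTMRs carried TrkBCreER;R26tdtomato(Ai14) and received 2 mg per day at embryonic days 12 to 13. Aβ SA1-LTMRs, the slowly adapting afferents of Merkel cells, and Aβ Field-LTMRs both carried TrkCCreER;Retf(GFP), with tamoxifen at 3 mg at E12.5 and at 2 mg per day between postnatal days 13 and 15, respectively. Proprioceptors, the muscle afferents, carried PVIRESCre;R26tdtomato(Ai14) without tamoxifen and came from thoracic ganglia alone, because this driver also labels some skin afferents at limb levels; the other 7 subtypes came from ganglia of all axial levels. Aβ RA-LTMRs had 5 libraries and each other subtype 3. Thoracic origin and proprioceptor identity therefore cannot be told apart, nor can the reporter allele or tamoxifen and the subtype.

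Hox genes encode homeodomain transcription factors that sit in 4 clusters, and the order of the genes along a cluster matches the order in which they are expressed from head to tail. Genes of low paralog number mark the hindbrain and neck, central groups the brachial and thoracic cord, and the highest numbers the lumbar and sacral cord. In the spinal cord they set motor neuron columns and pools by level, and in sensory ganglia Hoxd1 is known for the wiring of mouse nociceptors. Below, groups 1 to 3 are called anterior, groups 4 to 8 central, group 9 stands alone, and groups 10 to 13 are called posterior.

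To show where 4 of the genes with the widest differences begin, the 250 bases before their start sites are printed from RefSeq (GRCm38.p6), with motif matches on either strand in capitals. The motifs searched were TGATTNAT (reverse strand ATNAATCA), the site of a PBX-HOX pair, TATAAA (reverse strand TTTATA), the TATA box, and AGGTCA (reverse strand TGACCT), the core recognised by retinoic acid and other nuclear receptors; none of the 3 contains another.
Hoxb8, chr11:96281655-96281904, plus strand: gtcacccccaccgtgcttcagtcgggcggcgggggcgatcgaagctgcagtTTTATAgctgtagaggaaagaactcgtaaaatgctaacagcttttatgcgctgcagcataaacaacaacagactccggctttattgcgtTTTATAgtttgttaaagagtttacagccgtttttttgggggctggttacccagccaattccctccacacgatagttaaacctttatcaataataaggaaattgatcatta
Hoxb4, chr11:96318017-96318266, plus strand: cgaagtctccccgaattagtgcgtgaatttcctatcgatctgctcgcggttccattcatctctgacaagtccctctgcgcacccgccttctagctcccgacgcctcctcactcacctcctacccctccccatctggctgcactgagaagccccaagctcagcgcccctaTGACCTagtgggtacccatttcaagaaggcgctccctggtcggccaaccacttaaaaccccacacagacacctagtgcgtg
Hoxd1, chr2:74762730-74762979, plus strand: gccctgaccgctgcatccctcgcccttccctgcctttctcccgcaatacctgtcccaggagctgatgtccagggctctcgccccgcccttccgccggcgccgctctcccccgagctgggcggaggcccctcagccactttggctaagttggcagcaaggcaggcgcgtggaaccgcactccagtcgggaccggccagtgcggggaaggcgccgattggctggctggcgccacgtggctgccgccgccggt
Hoxd11, chr2:74682073-74682322, plus strand: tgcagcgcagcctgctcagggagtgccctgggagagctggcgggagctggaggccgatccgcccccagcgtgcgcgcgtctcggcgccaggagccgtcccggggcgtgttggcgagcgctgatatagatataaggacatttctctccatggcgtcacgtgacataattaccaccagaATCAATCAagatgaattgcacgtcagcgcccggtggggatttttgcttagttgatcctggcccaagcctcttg

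Of 32851 promoter windows of the same length, 2.82% held the PBX-HOX motif, 12.4% the TATA motif and 14.0% the nuclear receptor motif. RefSeq windows were found for 21 of the 37 Hox genes, 23 windows in all. The PBX-HOX motif stood in 2 of the 21 genes, Hoxa2 and Hoxd11, the TATA motif in 3 and the nuclear receptor motif in 5. The Hoxb8 window, upstream of a gene nearly silent in nociceptors, held 2 TATA matches, Hoxb4 held 1 nuclear receptor match, and Hoxd1 held none of the 3 motifs. The Hoxd1 window held 24 CpG dinucleotides and the Hoxb8 window 12, against a median of 6 over all windows. The Hoxd11 window is that of its downstream start, and a second RefSeq window for this gene was not printed.

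The depth of the libraries ran from 10706522 to 66309214 counts. Sensory neuron markers were detected in each library, with a mean log2 CPM (counts scaled to library size) of 8.35 to 9.39, and none of the 7 was at 0 anywhere. Markers of satellite glia, the cells that wrap each neuron, were also present in each library, none of the 12 at 0, with a mean log2 CPM of 3.89 to 4.31 in nonpeptidergic nociceptors, 5.27 to 5.92 in peptidergic nociceptors, 5.02 to 5.32 in C-LTMRs, 4.89 to 6.78 over the 14 A-fibre LTMR libraries and 6.43 to 7.06 in proprioceptors. Fibroblast and endothelial scores were highest in Aδ-LTMRs, at 2.27 to 2.68 and 1.43 to 2.33. Aδ-LTMR libraries 1 and 2 stood apart by their mapping rates of 61.4% and 74.5%, so each count below was also computed without them. These are bulk samples, so fewer cells of a type and less RNA per cell cannot be told apart. The series calls the libraries biological replicates, and the p-values measure the spread between these pools.

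All levels between different Hox genes are given per length, as the deposited RPKM (reads scaled to gene length and library size). Averaged over the 8 subtype means, Hoxd1 was highest at 16.3 RPKM and led the anterior band, followed by Hoxb5 at 14.9 RPKM, which led the central band. Hoxa7, a central gene, averaged 13.6 RPKM and Hoxd8 9.52 RPKM. Hoxa9 led group 9 at 5.63 RPKM and Hoxa10 the posterior band at 2.55 RPKM. Subtype means of Hoxa7 ran from 9.56 to 17.3 RPKM and those of Hoxa9 from 4.60 to 7.75 RPKM, whereas Hoxd1 ran from 1.17 to 39.9 RPKM and Hoxb5 from 1.17 to 36.2 RPKM. The sum over the 37 genes was 62.5 to 71.2 RPKM in proprioceptors and 56.0 to 148 RPKM in the other 23 libraries. The overlap came from Aβ SA1-LTMR library 2 alone, at 56.0 RPKM. The next lowest of the 23 was Aβ RA-LTMR library 2, at 86.3 RPKM. Central genes made up 45.8% to 82.1% of that sum over the 26 libraries, and posterior genes 1.76% to 10.01%.

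**Figure D1:**
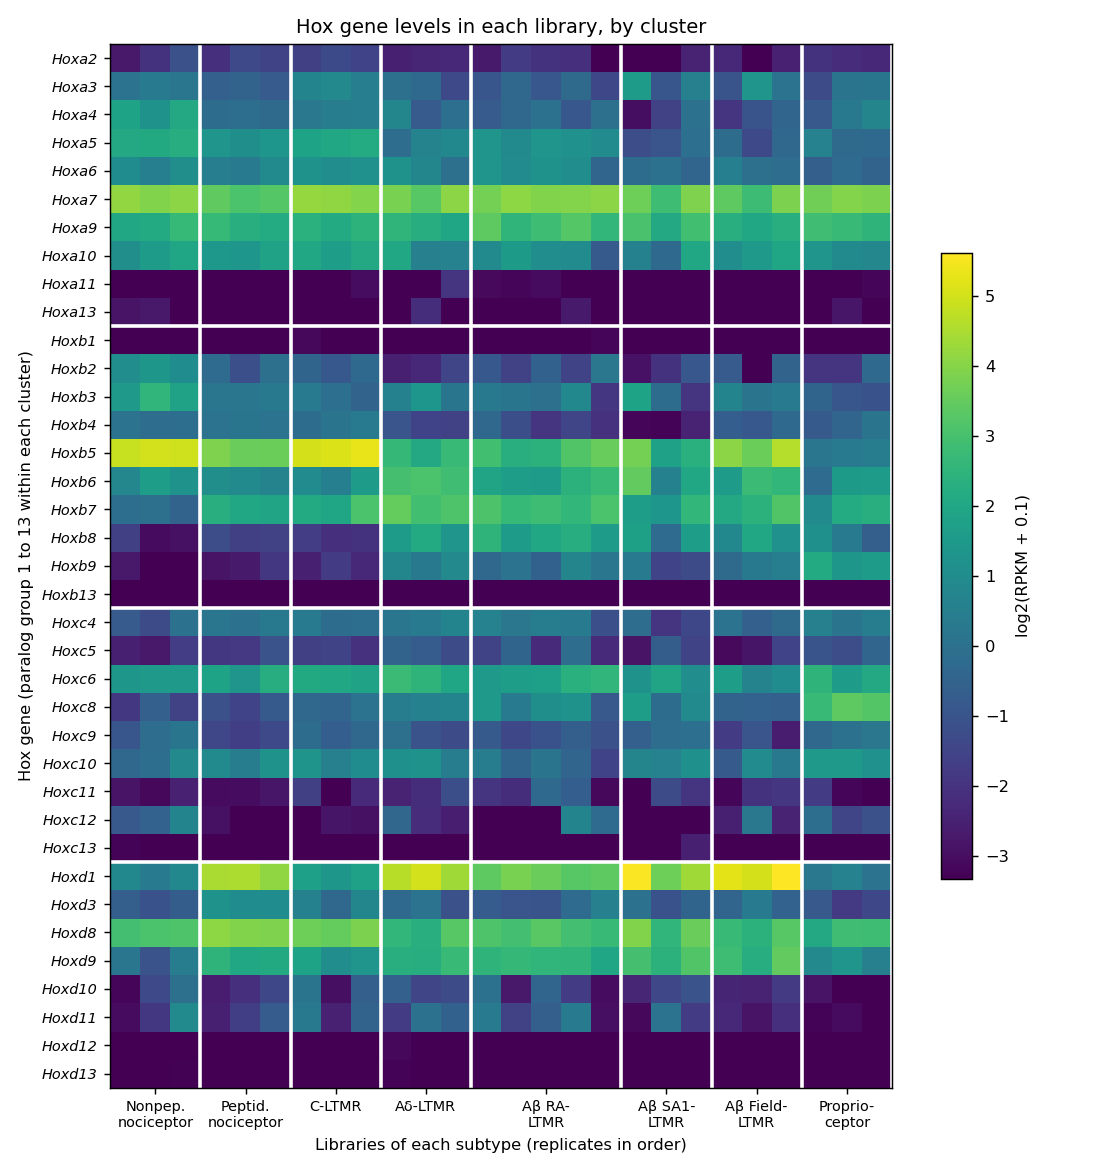
Level of each of 37 Hox genes (rows, ordered by cluster and paralog group) in each of 26 libraries (columns, grouped by subtype), as log2(RPKM + 0.1) on the colour scale. Subtype means of Hoxa7 run from 9.56 to 17.3 RPKM and those of Hoxd8 from 6.19 to 15.7 RPKM. Hoxb5 means are highest in C-LTMRs at 36.2 RPKM and nonpeptidergic nociceptors at 30.96 RPKM. They are 17.7 RPKM in Aβ Field-LTMRs, 12.9 RPKM in peptidergic nociceptors and lowest in proprioceptors at 1.17 RPKM. Hoxd1 means are 11.3 to 39.9 RPKM in peptidergic nociceptors and A-fibre LTMRs and 1.17 to 3.07 RPKM elsewhere.

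The 7 Hox genes too low to test were Hoxb1, Hoxa11, Hoxa13, Hoxb13, Hoxc13, Hoxd12 and Hoxd13, which apart from Hoxb1 are all posterior. Hoxb13 had no count in any of the 26 libraries, which allows a level of up to 0.0399 CPM in the deepest library and 0.304 CPM in the shallowest (3 counts, counting error only). Hoxa13, Hoxb1, Hoxd12 and Hoxd13 had at most 1 count in a library. Among tested genes, Hoxb2 had at most 23 counts in a library while its RPKM summed to 4.73 times its CPM, and for Hoxb3 this ratio was 1.84, against 0.209 for Hoxb4. Both overlap the antisense gene Hoxb3os, and the strand used in counting is not given in the sources used here. Likewise Hoxb5 and Hoxb6 overlap Hoxb5os, and Hoxd10 and Hoxd11 overlap Gm28309. The Hoxa3 model spans Hoxa4, Hoxa5 and Hoxa6, and the Hoxc5 model overlaps Hoxc6, Hoxc8, Hoxc9 and Hoxc10. Hoxd3 overlaps Hoxd4, Haglr and Hoxd3os1, Hoxd8 also overlaps Hoxd3os1, Hoxa7 overlaps Hoxaas3 and Hoxa2 overlaps Gm28308. The counts of all of these are uncertain to the extent that the authors' counting split shared reads. Hoxb4, Hoxb7, Hoxb8, Hoxb9 and Hoxd1 overlap no annotated gene.

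Of the 30 tested Hox genes, 22 (73.3%) differed among the 8 subtypes in edgeR's quasi-likelihood F test at an adjusted p under 0.05, against 78.3% of all 17411 genes tested. The share of Hox genes was near the background. Hoxa9 and Hoxa10 were among the 8 that did not pass, with adjusted p of 0.212 and 0.262. Hoxa7 passed, yet in none of the 28 pairs of subtypes did it pass both the test and a 2-fold difference. For Hoxd8, at 12.7 to 40.4 CPM in all libraries, the pairs gave the same result.

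The first comparison asks how Hox expression differs between the 4 A-fibre LTMR subtypes and the nociceptors and C-LTMRs, all collected from all axial levels. Its folds compare means of log2 levels over subtypes, so a subtype near 0 moves them more than it would a mean of CPM. In the 4 A-fibre LTMR subtypes, Hoxb8, a central gene best known for marking cells caudal to the neck, was 26.9-fold higher than in nociceptors and C-LTMRs, and its neighbour Hoxb9, a thoracic-level gene, was 22.6-fold higher. Hoxb4 and Hoxb5, at the other side of the same cluster, were 3.78-fold and 2.35-fold lower. Hoxd1 was 5.91-fold higher. A call required an adjusted p under 0.05 and at least a 2-fold difference. In all, 8 of 30 Hox genes (26.7%) were called higher, against 14.7% of all genes, and 5 (16.7%) lower, against 12.7% of all genes. The median log2 fold change was -0.06 over the Hox genes and 0.01 over all genes tested.

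Across the HoxB cluster the direction turned between Hoxb5 and Hoxb6. Hoxb8 ran from 0.0462 to 0.478 CPM, median 0.239, in the 9 nociceptor and C-LTMR libraries and from 2.01 to 12.8 CPM, median 6.51, in the 14 A-fibre LTMR libraries. Hoxb9 ran from 0 to 0.436 CPM, median 0.146, in the first and from 0.45 to 4.36 CPM, median 2.71, in the second. Neither gene overlapped between the 2 sets of libraries. The log2 fold changes were 4.75 ± 0.34 (SE) for Hoxb8, adjusted p = 7.81e-12, and 4.50 ± 0.39 for Hoxb9, adjusted p = 3.11e-10. Hoxb6 rose by 1.73 ± 0.26 on the log2 scale (adjusted p = 2.84e-06), from a median of 1.80 CPM to 6.37 CPM, and the libraries overlapped only between 2.29 and 2.75 CPM. Hoxb7 rose by 1.45 ± 0.19 (adjusted p = 4.89e-07), from a median of 4.44 CPM to 8.60 CPM, with overlap. Its lowest values, 1.10, 1.16 and 0.829 CPM, were in nonpeptidergic nociceptors.

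On the anterior side of that turn, Hoxb5 ran from 26.6 to 83.4 CPM, median 74.5, in nociceptors and C-LTMRs and from 11.3 to 65.0 CPM, median 18.2, in A-fibre LTMRs. The A-fibre LTMR libraries that reached the first range included the 3 of Aβ Field-LTMRs, at 45.5, 40.0 and 65.0 CPM. The others were Aβ RA-LTMR library 5 at 37.2 CPM and Aβ SA1-LTMR library 1 at 31.2 CPM. Hoxb5 fell by 1.23 ± 0.17 on the log2 scale (adjusted p = 8.47e-07). Hoxb4, a hindbrain and neck gene, ran from 3.34 to 4.84 CPM in nociceptors and C-LTMRs and from 0.0306 to 3.76 CPM in A-fibre LTMRs. It fell by 1.92 ± 0.28 (adjusted p = 2.64e-06). As a share of summed HoxB RPKM, Hoxb4 and Hoxb5 gave 62.9% to 84.2% in the 9 nociceptor and C-LTMR libraries. They gave 15.4% to 59.6% in the 14 A-fibre LTMR libraries, with no overlap.

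**Figure D2:**
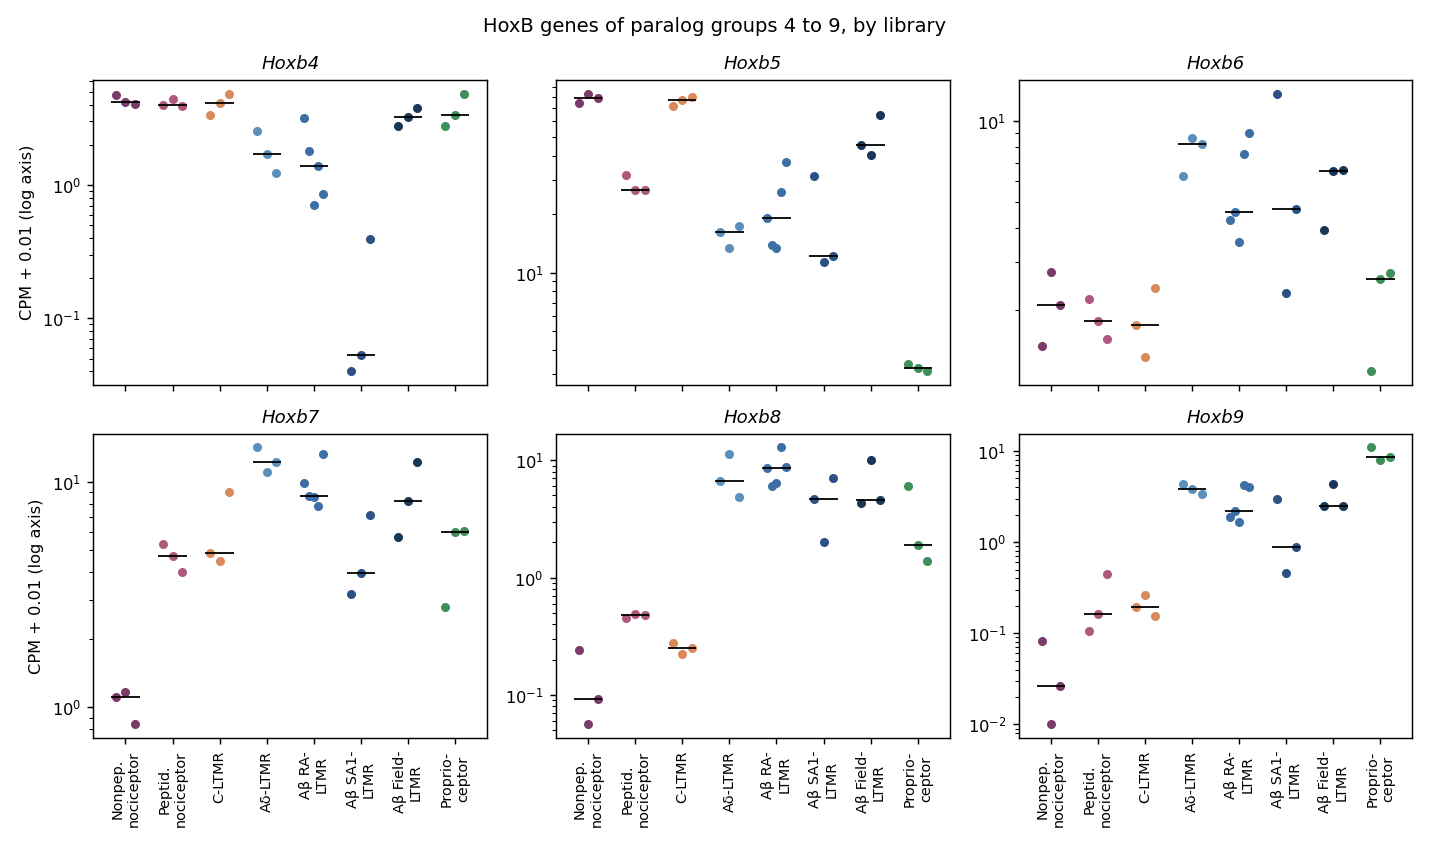
Level of 6 neighbouring HoxB genes in each of 26 libraries (dots, coloured by subtype; lines are subtype medians), as CPM + 0.01 on log axes that differ between panels. Hoxb8 reaches at most 0.478 CPM and Hoxb9 0.436 CPM in nociceptors and C-LTMRs, below the lowest A-fibre LTMR libraries at 2.01 and 0.45 CPM, while Hoxb5 is at 3.11 to 3.36 CPM in proprioceptors.

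Outside HoxB, the HoxA genes Hoxa2, Hoxa4 and Hoxa5 were lower in A-fibre LTMRs and 4 genes of HoxC and HoxD were higher. Hoxa5, needed in phrenic motor neurons, had a median of 7.68 CPM in nociceptors and C-LTMRs and 3.42 CPM in A-fibre LTMRs. It fell by 1.47 ± 0.16 on the log2 scale (adjusted p = 1.13e-08). Hoxa4 fell by 1.18 ± 0.33 (adjusted p = 0.00412) and Hoxa2, a hindbrain patterning gene at no more than 0.945 CPM, by 1.37 ± 0.49 (adjusted p = 0.0215). Mean Hoxa4 was 4.08 CPM in nonpeptidergic nociceptors, 1.37 CPM in C-LTMRs and 0.920 CPM in peptidergic nociceptors. It was 0.533 to 1.11 CPM in the A-fibre LTMR subtypes. Between pairs of subtypes, only nonpeptidergic nociceptors were called above another subtype for Hoxa4. Hoxc8, a brachial and thoracic gene, rose by 1.79 ± 0.25 (adjusted p = 1.31e-06), from a median of 1.33 CPM to 5.11 CPM. The libraries overlapped between 1.84 and 2.57 CPM. Aβ Field-LTMRs, at 1.97 to 3.55 CPM, were called above no other subtype for Hoxc8, and C-LTMRs were at 1.85 to 2.57 CPM. Hoxd9 rose by 1.81 ± 0.19 (adjusted p = 5.88e-09), from a median of 3.27 CPM to 12.01 CPM, and the only overlap was peptidergic library 1 at 8.23 CPM with Aδ-LTMR library 1 at 8.18 CPM. Hoxc11, a lumbosacral gene, rose by 2.02 ± 0.79 (adjusted p = 0.0334) at no more than 1.38 CPM, and lost the call in 16 of 36 alternative fits. The posterior genes Hoxa10, Hoxc10, Hoxd10 and Hoxd11 had log2 differences from -0.21 to -0.11 and did not pass.

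Satellite glia markers moved with this comparison: 7 of 12 were higher in A-fibre LTMRs (median log2 fold change 1.139), and the score ranges overlapped at 4.89 to 5.92. With that score as a covariate, the log2 fold change of Hoxa2 moved from -1.37 to -1.17 (adjusted p = 0.527), of Hoxb5 from -1.23 to -0.89 (adjusted p = 0.0763), of Hoxb7 from 1.45 to 0.95 (adjusted p = 0.0827) and of Hoxc11 from 2.02 to 3.82 (adjusted p = 0.16), and these 4 were no longer called. Hoxb8, Hoxb9, Hoxd1 and Hoxd9 kept their calls. The part of glial RNA in the calls that were lost was not tested. With the deposited read-length class as a covariate, 2 genes were called lower in place of 5. All nociceptor and C-LTMR libraries had reads of 15 to 50 bases. Other classes occurred only in Aδ-LTMR libraries 1 and 2, Aβ RA-LTMR libraries 1 to 3 and the Aβ SA1-LTMR libraries. The class is thus partly confounded with this comparison, and the lost calls cannot tell read length and subtype apart. Hoxa2 was then at -1.79 (adjusted p = 0.0571), Hoxa4 at -1.06 (adjusted p = 0.0797) and Hoxb5 at -0.80, with an adjusted p of 0.00211 but under 2-fold. Hoxc11, at 2.15 (adjusted p = 0.0805), was lost among the higher genes. Without Aδ-LTMR libraries 1 and 2, Hoxa2 was the only one of the 13 lost (adjusted p = 0.0621).

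**Figure D3:**
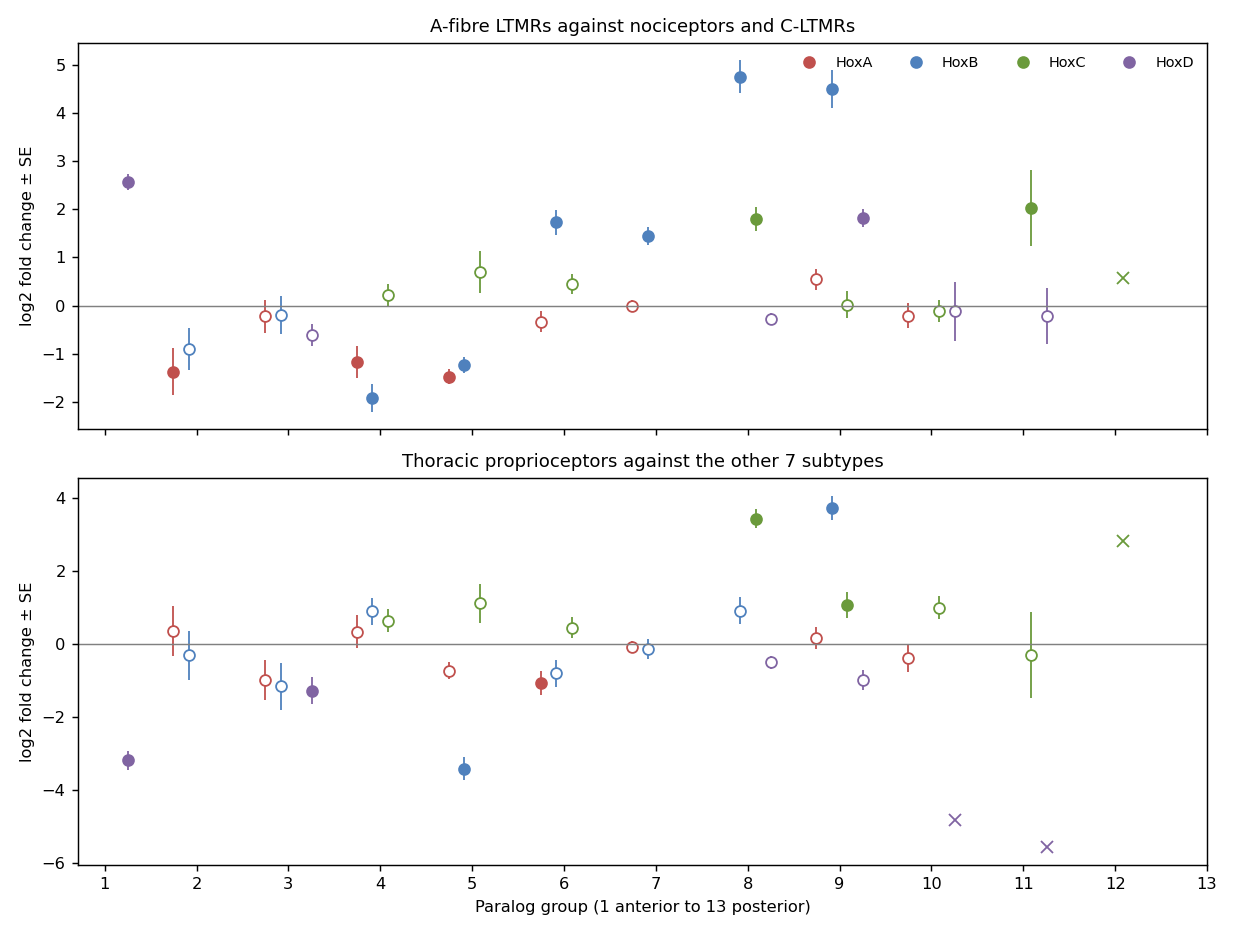
Fitted log2 fold change (± SE) of each tested Hox gene against its paralog group, coloured by cluster, for the A-fibre LTMR comparison (top) and the proprioceptor comparison (bottom); filled dots were called, open dots were not, and crosses mark Hoxc12, Hoxd10 and Hoxd11, whose fitted value rests on subtypes with 3 counts or fewer and is no bound. HoxB dots run from -1.92 at group 4 to 4.75 at group 8 in the top panel, and Hoxc8 and Hoxb9 stand highest of the dots in the bottom panel, at 3.44 and 3.73.

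Hoxd1 split the subtypes into a high and a low set, with peptidergic nociceptors beside the A-fibre LTMRs in the high set. It was 74.0, 76.7 and 92.9 CPM in Aβ Field-LTMRs, 44.0, 67.1 and 39.9 CPM in Aδ-LTMRs, 34.6, 37.97 and 27.2 CPM in peptidergic nociceptors, 72.6, 29.2 and 34.7 CPM in the Aβ SA1-LTMR libraries, and 18.3, 27.8, 20.8, 19.2 and 24.7 CPM in Aβ RA-LTMRs. It was 5.11, 4.15 and 4.96 CPM in C-LTMRs, 3.15, 2.17 and 3.05 CPM in nonpeptidergic nociceptors, and 2.45, 2.78 and 1.74 CPM in proprioceptors. The lowest library of the high set, at 18.3 CPM, lay above the highest of the low set, at 5.11 CPM. The sets were drawn from these same values, so the gap describes them and is no test, and the pair below was chosen after seeing it. Between Aβ RA-LTMRs and C-LTMRs, the neighbours across that gap, the log2 difference was 2.22 ± 0.27 (adjusted p = 2.36e-07).

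Within the high set, no neighbours in the order of the means (81.2, 50.3, 45.5, 33.3 and 22.1 CPM) passed the call rule. Aβ Field-LTMRs exceeded Aδ-LTMRs by 0.69 ± 0.27 on the log2 scale (adjusted p = 0.0853), Aδ-LTMRs exceeded Aβ SA1-LTMRs by 0.14 ± 0.27 (adjusted p = 0.729), these exceeded peptidergic nociceptors by 0.45 ± 0.27 (adjusted p = 0.184), and peptidergic nociceptors exceeded Aβ RA-LTMRs by 0.59 ± 0.24 (adjusted p = 0.0487, under 2-fold). Of non-neighbours, Aβ Field-LTMRs exceeded Aβ RA-LTMRs by 1.87 ± 0.24 (adjusted p = 2.79e-06). In the low set, C-LTMRs exceeded nonpeptidergic nociceptors by 0.76 ± 0.28 (adjusted p = 0.0371, under 2-fold), and these exceeded proprioceptors by 0.27 ± 0.29 (adjusted p = 0.467). The Hoxd1 window printed above, with none of the 3 motifs, starts a gene that spans these levels.

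**Figure D4:**
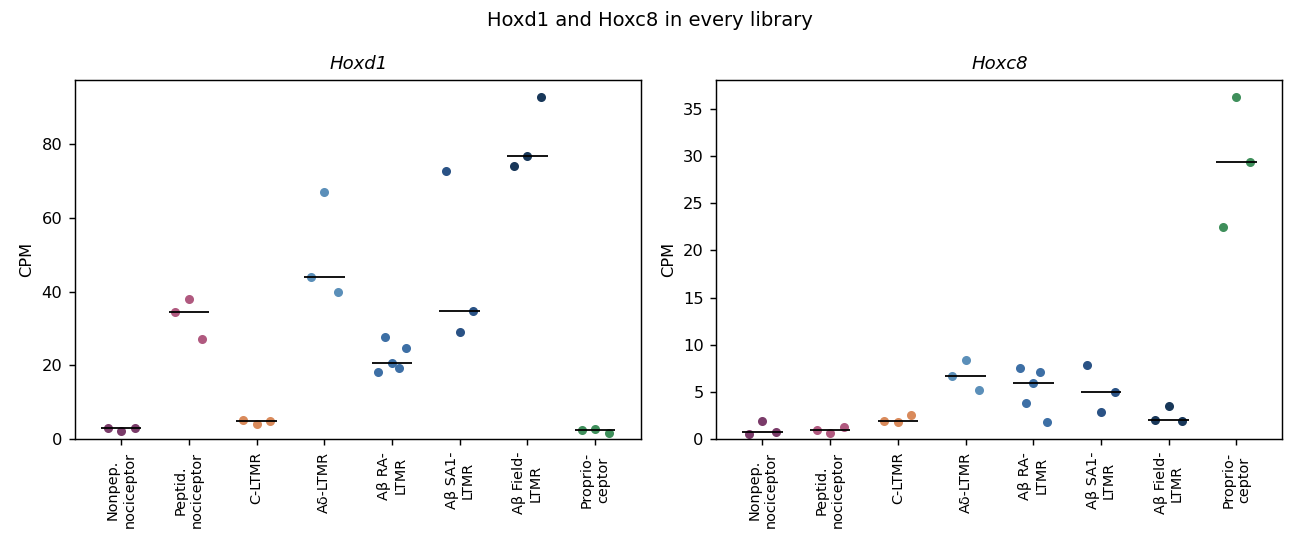
Level of Hoxd1 (left) and Hoxc8 (right) in each library as CPM on linear axes from 0 (dots, coloured by subtype; lines are subtype medians). Hoxd1 is at 18.3 CPM or more in 5 subtypes and at 5.11 CPM or less in the other 3, and Hoxc8 is at 22.5 to 36.3 CPM in proprioceptors and at most 8.40 CPM elsewhere.

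The second comparison sets thoracic proprioceptors against the mean of the other 7 subtypes, which cover all axial levels. That mean is again of log2 levels. Hoxc8 was 10.8-fold higher and Hoxb9 13.3-fold higher in proprioceptors, and Hoxb5 was 10.6-fold and Hoxd1 9.08-fold lower. Mean Hoxb9 was 9.08 CPM in proprioceptors and elsewhere ran from 0.0293 CPM in nonpeptidergic nociceptors to 3.81 CPM in Aδ-LTMRs. Mean Hoxd1 elsewhere ran from 2.79 CPM in nonpeptidergic nociceptors to 81.2 CPM in Aβ Field-LTMRs. The lumbar-level genes Hoxd10 and Hoxd11 were close to undetected, whereas Hoxa10 and Hoxc10, of the same paralog group as Hoxd10, were present. In all, 4 of 30 Hox genes (13.3%) were called higher, against 14.5% of all genes, and 6 (20%) lower, against 7.66% of all genes. The count of higher genes was thus near the background. Without Aδ-LTMR libraries 1 and 2, Hoxb8 and Hoxc10 were also called higher and Hoxd9 lower, 6 and 7 in all. The median log2 fold change was -0.21 over the Hox genes, also with Hoxd10 and Hoxd11 set to the ratio of their pooled counts, and 0.065 over all genes.

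Hoxc8 was 22.5, 36.3 and 29.3 CPM in proprioceptors and 0.57 to 8.40 CPM, median 2.57, in the other 23 libraries. It was the only Hox gene called higher in 1 subtype over each of the other 7, against 5.53% of all genes in some subtype, with log2 differences from 2.12 over Aδ-LTMRs to 4.85 over peptidergic nociceptors; with a satellite glia, fibroblast or endothelial score as a covariate it no longer passed against each of the 7. Over the mean of the other 7 the log2 fold change was 3.44 ± 0.26 (adjusted p = 6.54e-11). Hoxb9 was 10.9, 7.85 and 8.46 CPM, above the highest other library at 4.36 CPM, with a log2 fold change of 3.73 ± 0.34 (adjusted p = 1.82e-09). Hoxb8, between 1.37 and 5.99 CPM in proprioceptors, lay inside the range of the others and differed by 0.92 ± 0.36 (adjusted p = 0.0434, under 2-fold). Against A-fibre LTMRs alone, Hoxb8 fell by 1.11 ± 0.42 (adjusted p = 0.0493), so the 2 neighbouring genes moved in opposite directions there.

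Hoxc9, which sets thoracic motor columns, was 2.13, 2.31 and 2.59 CPM in proprioceptors and 0.153 to 2.59 CPM elsewhere, so the libraries overlapped. Its log2 fold change was 1.07 ± 0.36 (adjusted p = 0.0203), and with proprioceptor library 1, 2 or 3 left out the adjusted p was 0.0505, 0.068 and 0.103. When the satellite glia score entered as a covariate it turned to -0.54 (adjusted p = 0.712). Hoxc12, at 0.726, 0.119 and 0.169 CPM, was called (adjusted p = 0.0233), but elsewhere it ran from 0 to 1.11 CPM, so the libraries overlapped. Its mean was 0.338 CPM in proprioceptors, 0.401 CPM in nonpeptidergic nociceptors and 0.335 CPM in Aβ RA-LTMRs. Hoxc12 had no count in Aβ SA1-LTMRs, so no fold is given, and without proprioceptor library 1 the adjusted p was 0.25. Hoxc10, at 6.62, 5.61 and 4.50 CPM against 0.624 to 4.87 CPM elsewhere, differed by 1.00 ± 0.31 (adjusted p = 0.0118), just under 2-fold.

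Among the lower genes, Hoxb5 was 3.36, 3.20 and 3.11 CPM in proprioceptors and 11.3 to 83.4 CPM elsewhere. It was lower than in each of the other 7 subtypes, and over their mean fell by 3.41 ± 0.33 on the log2 scale (adjusted p = 5.9e-09). Hoxd1 fell by 3.18 ± 0.27 (adjusted p = 6.11e-10). Hoxd3, the neighbour of Hoxd1 in the cluster and also of the anterior band, was 1.41, 0.457 and 0.474 CPM against 0.832 to 5.22 CPM. It fell by 1.27 ± 0.38 (adjusted p = 0.00856). Hoxa6 was 1.09, 0.974 and 0.795 CPM against 0.938 to 3.75 CPM and fell by 1.07 ± 0.34 (adjusted p = 0.0137). Hoxa6, Hoxd3 and Hoxd10 were no longer called without proprioceptor library 2, at adjusted p of 0.0532, 0.0876 and 0.068, or without library 3, at 0.0865, 0.087 and 0.0719.

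In the 3 proprioceptor libraries together, Hoxd10 had 3 counts (0.136, 0 and 0 CPM) and Hoxd11 2 counts (0.0454, 0.0199 and 0 CPM). The other 23 libraries ran from 0.0356 to 2.70 CPM for Hoxd10, median 0.733, and from 0.0764 to 3.38 CPM for Hoxd11, median 0.715. Pooled over libraries, the proprioceptor level of Hoxd10 was 0.0232 times that of the others (95% exact interval 0.00477 to 0.0679) and that of Hoxd11 0.0155 times (0.00187 to 0.0560), both intervals covering counting error only. The fitted test called both lower, at adjusted p of 0.0105 and 0.00434, and Hoxd11 was also called lower than in each other subtype. By contrast Hoxa10 was 5.90, 4.29 and 3.84 CPM in proprioceptors and 1.37 to 13.8 CPM elsewhere, a log2 difference of -0.37 ± 0.38 (adjusted p = 0.47). Hoxd10 and Hoxd11 were thus near 0 in the thoracic libraries while Hoxa10 and Hoxc10 were not. Hoxc11, of the same group as Hoxd11, was also low there, at 0 to 0.544 CPM, median 0.0199, against a median of 0.207 CPM elsewhere. Its pooled ratio was 0.362 (95% exact interval 0.190 to 0.628, counting error only), and the fitted test did not call it (adjusted p = 0.88).

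As shares of summed Hox RPKM, HoxC gave 26.3% to 29.3% in proprioceptors and 3.35% to 13.9% in the other 23 libraries. Anterior genes gave 4.53% to 5.03% against 6.51% to 38.6%, and neither share overlapped, though C-LTMRs came near at 6.51% to 7.42%. These shares include genes already described. Mean Hoxc8 was 8.78 RPKM in proprioceptors and 0.324 to 1.90 RPKM elsewhere, and mean Hoxd1, of the anterior band, 1.17 RPKM against 1.53 to 39.9 RPKM. Posterior genes gave 6.13% to 10.01% against 1.76% to 9.59%, which overlapped. Of 12 satellite glia markers, 9 were higher in proprioceptors (median log2 fold change 1.31). With that score as a covariate, Hoxb9, Hoxc8, Hoxb5, Hoxd1 and Hoxd11 kept their calls, and 2 genes in place of 4 were called higher and 3 in place of 6 lower. Of those lost, Hoxa6 moved from -1.07 to -0.95 (adjusted p = 0.406) and Hoxd3 from -1.27 to -0.90 (adjusted p = 0.408), Hoxc9 turned as given above, and Hoxd10 and Hoxc12 had adjusted p-values of 0.134 and 0.493. The part of glial RNA in those that were lost was not tested.

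Set against the mean of the 4 A-fibre LTMR subtypes alone, proprioceptors had higher Hoxc8, by 2.67 ± 0.29 on the log2 scale (adjusted p = 1.5e-07), and higher Hoxb9, by 1.80 ± 0.38 (adjusted p = 0.000821). Hoxb4 was also higher, by 1.72 ± 0.38 (adjusted p = 0.00111), while Hoxb6 fell by 1.53 ± 0.40 (adjusted p = 0.00494) and Hoxd9 by 1.75 ± 0.29 (adjusted p = 6.1e-05). Hoxd1 fell by 4.28 ± 0.29 (adjusted p = 5.71e-11). Also called higher were Hoxc9, by 1.06 ± 0.39 (adjusted p = 0.0386), and Hoxc10, by 1.05 ± 0.33 (adjusted p = 0.0171). Also called lower were Hoxb5, by 2.88 ± 0.32 (adjusted p = 1.76e-07), Hoxd3, by 1.02 ± 0.38 (adjusted p = 0.0453), and Hoxb8, as given above. Hoxd10 and Hoxd11, near 0 in proprioceptors, were called lower as well (adjusted p = 0.0164 and 0.00758). Hoxb4 in proprioceptors, at 2.77 to 4.77 CPM, overlapped the range of nociceptors and C-LTMRs, 3.34 to 4.84 CPM, while Hoxb9 lay above all A-fibre LTMR libraries.

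**Figure D5:**
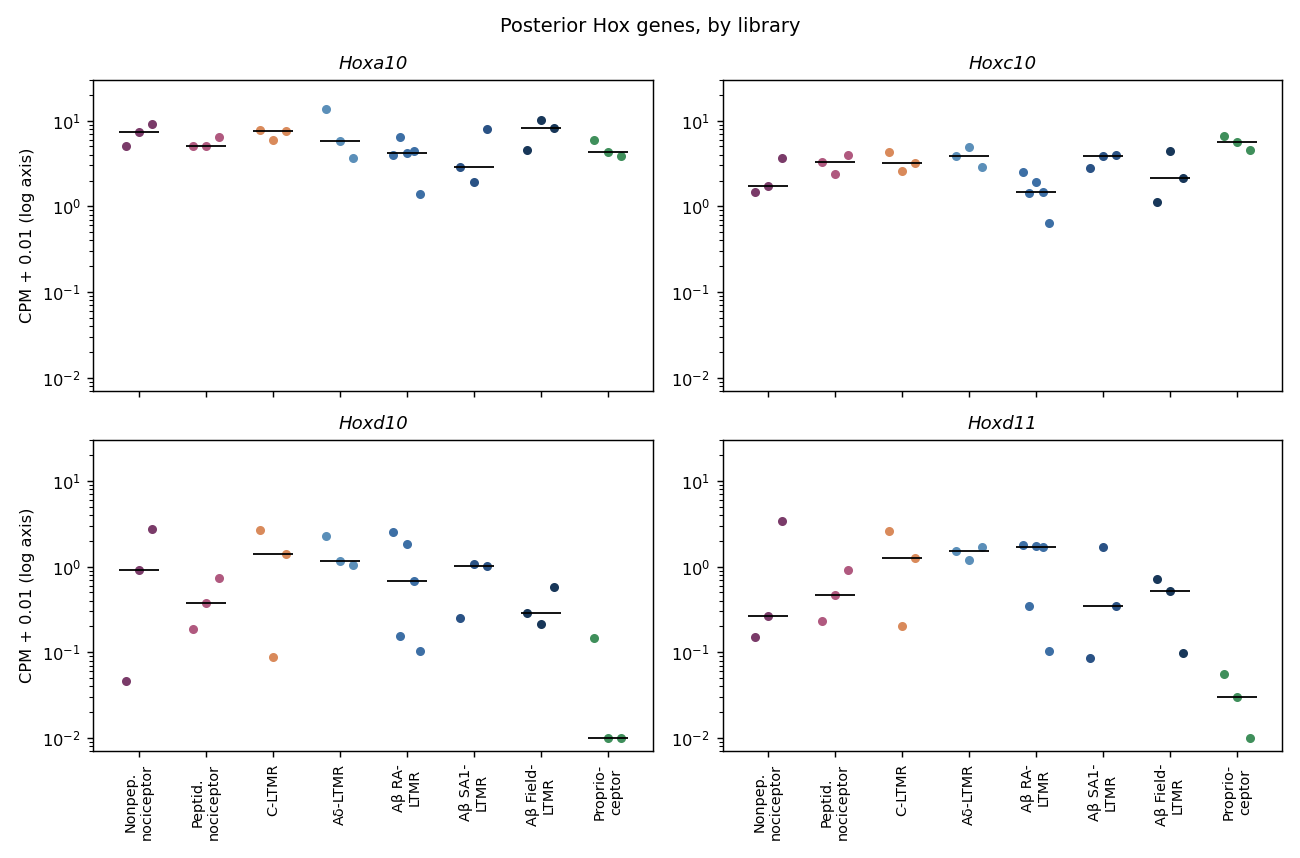
Level of 4 posterior Hox genes in each library (dots, coloured by subtype; lines are subtype medians), as CPM + 0.01 on log axes; dots at 0.01 had no count. Hoxd10 and Hoxd11 are at or below 0.136 CPM in proprioceptors and spread widely within most other subtypes, while Hoxa10 and Hoxc10 are at 3.84 to 6.62 CPM in proprioceptors.

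Posterior HoxD genes also varied widely between libraries of one subtype. Hoxd11 was 0.143, 0.254 and 3.38 CPM in nonpeptidergic nociceptors, 2.59, 0.195 and 1.24 CPM in C-LTMRs, and 1.80, 0.335, 1.73, 1.69 and 0.0937 CPM in Aβ RA-LTMRs. Hoxd10 was 0.0356, 0.901 and 2.70 CPM in nonpeptidergic nociceptors and 2.67, 0.078 and 1.38 CPM in C-LTMRs. The same libraries were low and high for both genes. Over the 23 libraries other than proprioceptors, deviations of log2 CPM from the subtype mean correlated between Hoxd10 and Hoxd11 with r = 0.78 (Spearman's rho 0.74), between Hoxc11 and Hoxd11 with r = 0.66 (rho 0.64), and between Hoxc10 and Hoxd10 with r = 0.61 (rho 0.61). Hoxa10, also posterior, correlated with Hoxc10 at r = 0.59 (rho 0.60), with Hoxd10 at 0.39 (rho 0.44), with Hoxc11 at 0.29 (rho 0.27) and with Hoxd11 at 0.22 (rho 0.26). For Hoxd11 with Hoxd8, a central gene of the same cluster, r was -0.29 (rho -0.15). These values describe libraries that share depth and sort within themselves, and the overlapping model Gm28309 touches both Hoxd10 and Hoxd11. The shares of cervical, thoracic and lumbar ganglia in each pool are not given in the sources used here.

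The third comparison sets peptidergic against nonpeptidergic nociceptors, both from GFP reporters without tamoxifen. Hoxd1 was 11.9-fold higher in peptidergic cells, and the HoxB and HoxD genes Hoxb7, Hoxb8, Hoxb9, Hoxd3 and Hoxd9 were also higher. Hoxa4, Hoxa5, Hoxb3, Hoxb5, Hoxc9 and Hoxc12 were lower. The 6 of 30 in each direction (20%) stood against 15.3% of all genes higher and 10.9% lower, and the median log2 fold change was -0.195 over the Hox genes, also with Hoxc12 set to its pooled ratio, and 0.03 over all genes.

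Hoxb7, Hoxb9 and Hoxd9 were each lower in nonpeptidergic nociceptors than in each of the other 7 subtypes, 3 of 30 (10%) against 6.5% of all genes. In all, 6 of 30 Hox genes (20%) were lowest in some subtype, against 9.18% of all genes. Hoxb9 had 0.0713, 0 and 0.0166 CPM in nonpeptidergic cells, 5 counts in all, and 0.0958, 0.153 and 0.436 CPM in peptidergic cells, a log2 fold change of 2.78 ± 0.84 (adjusted p = 0.0104). Hoxb7 was 5.29, 4.67 and 3.98 CPM in peptidergic cells, higher by 2.17 ± 0.37 (adjusted p = 4.38e-05). Hoxd9 was 8.23, 6.18 and 6.21 CPM against 1.75, 0.647 and 2.09 CPM, higher by 2.19 ± 0.35 (adjusted p = 1.95e-05). Hoxd3 was 5.22, 4.11 and 3.86 CPM against 1.46, 0.832 and 1.36 CPM, higher by 1.85 ± 0.44 (adjusted p = 0.00183), and Hoxb8 was higher by 1.89 ± 0.63 (adjusted p = 0.0199).

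Hoxa4 was 4.37, 2.89 and 4.99 CPM in nonpeptidergic and 0.911, 0.995 and 0.855 CPM in peptidergic cells, a fall by 2.15 ± 0.64 (adjusted p = 0.0101). Hoxb5 fell by 1.48 ± 0.33 (adjusted p = 0.000912), from 74.5, 83.4 and 79.6 CPM to 31.9, 26.6 and 26.7 CPM. Hoxa5 fell by 1.15 ± 0.30 (adjusted p = 0.00332), Hoxb3 by 2.05 ± 0.76 (adjusted p = 0.0355) and Hoxc9 by 1.70 ± 0.54 (adjusted p = 0.0147). Hoxc12 had 1 count in all in peptidergic cells against 67 in nonpeptidergic cells, a pooled ratio of 0.0138 (95% exact interval 0.000345 to 0.0798; fitted adjusted p = 0.0212). Hoxb3 was no longer called without nonpeptidergic library 2 or 3, without any 1 of the 3 peptidergic libraries (adjusted p from 0.0542 to 0.111 over these 5), or without Aδ-LTMR libraries 1 and 2 (adjusted p = 0.0543). Hoxc9 was lost without nonpeptidergic library 3 (adjusted p = 0.0704) or peptidergic library 2 (adjusted p = 0.0577), and Hoxc12 without nonpeptidergic library 3 (adjusted p = 0.0645) or peptidergic library 2 (adjusted p = 0.0764) or 3 (adjusted p = 0.0803). Hoxb8 was lost without nonpeptidergic library 2 or 3, and Hoxb9 without nonpeptidergic library 3 or peptidergic library 3. Satellite glia markers moved with this comparison as well, 9 of 12 higher in peptidergic cells, and with that score as a covariate Hoxd1 and Hoxd9 alone were called higher and Hoxa4 and Hoxc9 alone lower. The log2 fold changes of Hoxb8 and Hoxb9 were then larger, at 2.85 (adjusted p = 0.0811) and 3.33 (adjusted p = 0.103), as was that of Hoxd3, at 2.36 (adjusted p = 0.0527). Those of Hoxb7, at 1.40 (adjusted p = 0.164), Hoxa5, at -0.62 (adjusted p = 0.545), and Hoxb5, at -0.92 (adjusted p = 0.357), were smaller, and Hoxb3 turned to 0.73 (adjusted p = 0.803). Hoxc12 had an adjusted p of 0.194.

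Fibroblast and endothelial markers were also higher in peptidergic cells, 4 of 9 and 3 of 11, with none lower, and the fibroblast score was 1.22 to 1.64 there against -0.13 to 0.28 in nonpeptidergic cells. Entering the fibroblast score ended the calls of Hoxa4, at -2.35 (adjusted p = 0.27), Hoxa5, at -1.37 (adjusted p = 0.134), Hoxb3, at -0.77 (adjusted p = 0.843), and Hoxb5, at -0.89 (adjusted p = 0.446). Among the higher genes it ended those of Hoxb8, at 1.30 (adjusted p = 0.559), Hoxb9, at 3.16 (adjusted p = 0.147), and Hoxd3, at 1.21 (adjusted p = 0.437), and Hoxc12 had an adjusted p of 0.111. Hoxb7, Hoxc9, Hoxd1 and Hoxd9 kept theirs. When the endothelial score was entered instead, Hoxb3, at -1.62 (adjusted p = 0.145), and Hoxb8, at 1.40 (adjusted p = 0.0785), were lost. The part of RNA from these other cells in the calls that were lost was not tested.

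The fourth comparison sets Aβ SA1-LTMRs against Aβ Field-LTMRs, which carried the same alleles and differed in tamoxifen day and dose. Across Aβ SA1-LTMR libraries Hoxb4 was 0.0306, 0.0429 and 0.382 CPM, against 2.77, 3.24 and 3.76 CPM in Aβ Field-LTMRs, or 20.6-fold lower (log2 fold change -4.37 ± 0.64, adjusted p = 6.69e-05). It was lower in Aβ SA1-LTMRs than in each of the other 7 subtypes. Hoxb5 was 31.2, 11.3 and 12.2 CPM against 45.5, 40.0 and 65.0 CPM and fell by 1.46 ± 0.33 (adjusted p = 0.00455). These 2 of 30 (6.67%) stood against 5.66% of all genes lower, and Hoxa3, the 1 gene higher (3.33%), against 3.21%, both near the background. In Aβ SA1-LTMR libraries Hoxa3 was 6.49, 0.45 and 1.19 CPM, so that library 1 alone was high, and without it the log2 difference moved from 2.20 (adjusted p = 0.0432) to 0.50 (adjusted p = 0.64). All 3 Aβ SA1-LTMR libraries had reads of 25 to 50 bases and all 3 Aβ Field-LTMR libraries 15 to 50 bases. With that class as a covariate Hoxb5 differed by -0.43 (adjusted p = 0.527). No library of this pair shares a class with the other subtype, so read length and subtype cannot be told apart here. Of 11 endothelial markers, 3 were lower in Aβ SA1-LTMRs and none higher, with scores of -3.14 to -2.60 against -2.23 to -0.70. Entering that score left Hoxb5 at -1.19 (adjusted p = 0.0628) and Hoxa3 at 2.09 (adjusted p = 0.156), neither called, and the part of endothelial RNA was not tested.

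The partners and regulators of Hox proteins were followed with lists of other genes, whose counts stand beside 14.5% of all genes higher and 7.66% lower in proprioceptors, and 14.7% higher and 12.7% lower in A-fibre LTMRs. Of 10 PBX, MEIS and PREP cofactors, which bind DNA together with Hox proteins, 3 were higher in A-fibre LTMRs than in nociceptors and C-LTMRs, among them Meis2 by 3.43 ± 0.15 on the log2 scale (adjusted p = 5.17e-16) and Pbxip1, which binds PBX proteins, by 1.20 ± 0.18 (adjusted p = 4.27e-06). Mean Meis2 was 1.45 ± 0.45 CPM (SD, n = 3) in C-LTMRs and 79.3 ± 4.9 CPM (n = 3) in Aβ Field-LTMRs. In proprioceptors 3 cofactors were higher and 1 lower than the mean of the other 7: Meis2 rose by 2.36 ± 0.15 (adjusted p = 2.03e-12), Pbxip1 by 1.61 ± 0.22 (adjusted p = 1.45e-06), Pbx4 by 1.53 ± 0.37 (adjusted p = 0.00174), and Pknox2, a PREP gene, fell by 2.32 ± 0.16 (adjusted p = 2.02e-11). Pbx4 stayed below 5 CPM and was named after its values were seen. The nociceptor and C-LTMR libraries are controls in both comparisons.

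Of 30 Polycomb genes, which keep Hox genes silent, 2 were called higher in proprioceptors (Epop and Pcgf5) and 1 lower (Cbx2), and in A-fibre LTMRs 1 was higher (Pcgf5) and 1 lower (Kdm2b). All stayed below 5 CPM and were named after their values were seen. None of 13 genes of the MLL complexes and H3K27 demethylases, which keep Hox genes active, was called by edgeR in either comparison. At an unadjusted p under 0.05, 6 of them were lower and 0 higher in proprioceptors, where 20.9% of all genes were lower and 27.1% higher. In A-fibre LTMRs 9 were lower and 2 higher, against 29.1% and 29.3% of all genes, while DESeq2 called 0 in the first comparison and 1 higher in the second.

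Of 14 tested noncoding and flanking genes of the clusters, 1 was lower in proprioceptors, Haglr, a long noncoding RNA beside Hoxd1 and Hoxd3, by 2.68 ± 0.43 on the log2 scale (adjusted p = 1.5e-05). Its mean was 0.294 ± 0.14 CPM (SD, n = 3) there and 4.94 ± 1.1 CPM (n = 3) in peptidergic nociceptors, and its model overlaps Hoxd3. In A-fibre LTMRs 3 were lower: Skap2, the gene that flanks the HoxA cluster, fell by 1.99 ± 0.14 (adjusted p = 4.83e-12), Hoxaas2 by 2.09 ± 0.40 (adjusted p = 9.7e-05) and Hotairm1, at the anterior end of HoxA, by 1.46 ± 0.44 (adjusted p = 0.00639). The noncoding genes, all below 5 CPM, were named after their values were seen.

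Retinoic acid and GDF11 set Hox expression along the embryo. Of 13 tested genes of these pathways, 4 were higher in proprioceptors and 1 lower. Among them Crabp1, a retinoic acid carrier, rose by 2.73 ± 0.29 (adjusted p = 3.17e-08), the receptor gene Rarb by 2.04 ± 0.22 (adjusted p = 5.23e-08) and Gdf11 by 1.15 ± 0.18 (adjusted p = 9.07e-06), and the receptor gene Rarg fell by 1.63 ± 0.26 (adjusted p = 1.87e-05). In A-fibre LTMRs 4 were higher (Rxra, Crabp1, Rarb and Rara) and 4 lower (Cyp26b1, Rarg, Rxrg and Aldh1a3); Gdf11 in the first comparison and Crabp1, Rarb, Rara and Aldh1a3 in the second were named after their values were seen. Rarg fell by 1.94 ± 0.16 (adjusted p = 7.99e-11) and Rxrg by 1.75 ± 0.36 (adjusted p = 0.000217), and Rxra rose by 1.59 ± 0.15 (adjusted p = 1.74e-09). Cyp26b1, which degrades retinoic acid, was 16.3 ± 5.1 CPM (SD, n = 3) in nonpeptidergic nociceptors and below 0.84 CPM on average in each other subtype, with no count in Aβ SA1-LTMRs, so no fold is given.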

How the data were processed

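Raw counts per gene and RPKM were deposited by the authors in separate tables, beside an alignment summary with GC content as a percent, mapping, exonic and duplicate shares as a fraction, mapped reads as counts and a 5' to 3' bias as a ratio. Per the submitters' processing notes the tools were FastQC 0.11.3, Cuffdiff, STAR, DESeq2 1.14.1 and HTSeq 0.6.1 and the build mm10, with no role stated; strand and annotation are not given in the sources used here. The authors' table of regularized log2 values was not used. Per the labels, RNA was amplified before library preparation, so levels are relative.

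Members and gene lists were chosen with earlier results of these data known. Counts were tested in R 4.3.3 with edgeR 4.0.16 (filterByExpr over 8 groups, TMM, robust glmQLFit, 17411 genes), with Benjamini-Hochberg adjustment over all of them; apart from the F test, a call needs a fold of 2 or more (1 on the log2 scale) beside an adjusted p under 0.05. Means over subtypes are of fitted log2 levels, each subtype weighted equally. Each SE is the log2 fold change over the root of F. The fit was tested on simulated data. CPM used TMM-scaled totals. The deposited RPKM were used for levels between genes and shares, and in limma 3.58.1 as log2(RPKM + 0.1) and log2(RPKM + 1). DESeq2 1.42.0 was another test. Python 3.11.15 made descriptions and figures. Libraries of a subtype differed beyond sampling noise (chi-square per degree of freedom at least 9.16). Positions of Hox gene models are from GENCODE. Every called member and the highest member of each band is named; list genes are named if called with at least 5 CPM in a subtype, up to 4 per list and comparison, and some genes counted in the lists are not reported here. Fixed alternatives were DESeq2, no filter, a replicate block, each library left out, Aδ-LTMR libraries 1 and 2 left out, read-length class and 3 marker scores as covariates, both RPKM fits, no fold minimum, A-fibre LTMRs as the reference for proprioceptors, and shares from counts.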

Additional observations from a re-analysis of the deposited data

Results flagged for a closer look

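Among the 5 Aβ RA-LTMR libraries, the only subtype with enough libraries for the check, 3 of 30 tested Hox genes had 1 library far from the others. Hoxa6 was lowest in library 5 at 1.22 CPM, against 3.75, 3.35, 3.63 and 3.51 CPM. Hoxc4 was lowest in the same library at 0.999 CPM, against 3.17, 2.59, 2.76 and 2.93 CPM. Hoxd8 was highest in library 3 at 26.7 CPM, against 23.1, 22.6, 22.6 and 23.2 CPM. Chance flags about 5% of such groups. Library 5 also had the lowest exonic share, 45.7%, whose part in these values was not tested.

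Of the Hox genes too low to test, 2 had counts above 3 in a single library. Hoxa11 had 17 of its 26 counts in Aδ-LTMR library 3, and Hoxc13 had 11 of its 12 counts in Aβ SA1-LTMR library 3.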

How the results depend on the processing

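Of 38 results for single genes, 11 kept direction and call in all 36 alternative fits each: Hoxb5, Hoxb9, Hoxc8 and Hoxd1 in proprioceptors, Hoxa5, Hoxb6, Hoxb8, Hoxd1 and Hoxd9 in A-fibre LTMRs, and Hoxd1 and Hoxd9 in peptidergic nociceptors. Over 1368 fits, 1243 kept the call, 123 lost it and 2 reversed: once the satellite glia score was a covariate, Hoxc9 in proprioceptors turned to -0.54 and Hoxb3 in peptidergic nociceptors to 0.73. That covariate left 2 Hox genes higher and 3 lower in proprioceptors, 3 lower in A-fibre LTMRs, 2 higher and 2 lower in peptidergic nociceptors, 4 lower in Aβ SA1-LTMRs, 0 higher in 1 subtype over each other and 1 lowest in 1 subtype. The fibroblast score left 3 higher and 2 lower in peptidergic nociceptors, 0 higher in 1 subtype and 3 lowest. The endothelial score left 0 higher and 1 lower in Aβ SA1-LTMRs, 0 higher in 1 subtype and 3 lowest. The read-length class left 2 lower in A-fibre LTMRs and 1 lower in Aβ SA1-LTMRs. In limma, log2(RPKM + 0.1) gave 2 higher in proprioceptors, and log2(RPKM + 1), which shrinks low genes, gave 2 higher and 2 lower in proprioceptors, 4 higher and 2 lower in A-fibre LTMRs, 3 lower in peptidergic nociceptors, 0 higher and 1 lower in Aβ SA1-LTMRs, and 2 lowest in 1 subtype. DESeq2 gave 2 higher and 4 lower in Aβ SA1-LTMRs and 2 higher in 1 subtype. The cause of these moves was not tested otherwise.

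With the replicate block, 4 were lower in Aβ SA1-LTMRs and 2 higher in 1 subtype. The mean correlation of a library with others of its number was -0.024 to 0.029. Such a mean cannot exclude that some of them shared a preparation. Leaving out each library in turn gave 18 to 25 genes differing among subtypes, 2 to 6 higher and 3 to 8 lower in proprioceptors, 7 to 8 higher and 4 to 6 lower in A-fibre LTMRs, 4 to 6 higher and 3 to 6 lower in peptidergic nociceptors, 0 to 2 higher and 2 to 5 lower in Aβ SA1-LTMRs, 1 to 3 higher in 1 subtype and 4 to 7 lowest. Levels under 0.304 CPM rest on fewer than 3 counts in the shallowest library.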
